A study of Mus musculus with 10 samples.

Results

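The respiratory chain of the inner mitochondrial membrane is built from subunits of 2 genomes. Its members were taken as the protein-coding genes whose mouse symbol begins with mt-, Nduf, Sdh, Uqcr, Atp5 or Cox followed by a digit. The deposited tables list 119 such genes among 28987, and 115 of these reached 1 TPM (transcripts per 1000000) in at least 2 of 10 libraries and were tested among 14166 genes. Of the 115, 13 are encoded by mitochondrial DNA, 79 are nuclear-encoded subunits and 23 are nuclear-encoded assembly or supercomplex factors. The 4 members left out were Cox8c, listed at 0 in every library, Cox6b2, Cox7b2 and Atp5g2. Cox6b2 was listed at 0.900 TPM in LPS replicate 1 and at 0 elsewhere, Cox7b2 reached at most 0.151 TPM, and Atp5g2 at most 1.06 TPM. Cox6b2, Cox7b2 and Cox8c are the testis forms of their subunits.

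RNA sequencing measured transcripts in cultures labelled as from male C57BL/6 mice aged 6 to 8 weeks. They were made by collagenase and dispase digestion of inguinal fat and grown to confluence. The source is given as primary white adipocytes, although the treatment text speaks of adipose tissue. The 5 groups of 2 libraries were treated for 24 h with recombinant BAFF or recombinant APRIL (TNF-family ligands, 500 ng/ml each), LPS (bacterial lipopolysaccharide, 100 ng/ml), norepinephrine (the sympathetic transmitter, 1 mM) or saline. No label tells if both libraries in a group come from different cultures or animals, and a p-value here therefore covers only library-to-library spread, which may be technical.

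Adipocyte genes were abundant, with Fabp4, the fatty acid binding protein of adipocytes, at 5452 and 6287 TPM in the saline libraries. In saline, adipocyte markers summed to 9910 and 11100 TPM and 12 fibroblast and preadipocyte markers to 11200 and 10000 TPM, so markers of adipocytes and of stromal cells were both present. In such bulk samples, fewer cells of a type and less RNA per cell cannot be told apart. Both libraries labelled APRIL differed from the other 8 in general. They correlated with the other libraries at 0.850 to 0.886 across genes, against 0.948 to 0.991 among the other 8. The sum of 4 Y-linked genes was 0.489 and 0.775 TPM in them, against 93.8 to 123 TPM in the other 8. All libraries are labelled male, and the near absence of Y-linked transcripts in these 2 goes against that label. An effect of APRIL and a difference in the source of the cells cannot be told apart in them. Results of the other 3 treatments are therefore given from the fit of all 10 libraries and from the fit of the 8 libraries not labelled APRIL. The deposited values hold no counts, so the depth behind them is unknown.

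Complexes I and II pass electrons from NADH and succinate to ubiquinone, complex III passes them on to cytochrome c and complex IV passes them to oxygen, while complexes I, III and IV pump protons. Complex V, the ATP synthase, uses the proton gradient to make ATP, and in thermogenic adipocytes uncoupling protein 1 lets protons return without ATP synthesis. Mitochondrial DNA encodes the membrane core of complexes I, III, IV and V, and every subunit of complex II is nuclear-encoded. Adrenergic stimulation is known to raise mitochondrial gene expression in brown and beige fat.

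Norepinephrine was the treatment with the largest shift of the nuclear-encoded subunits. The promoters of 4 of these subunits are shown here, chosen after their values were seen. Cox7a1 and Cox8b, subunit forms of muscle and brown fat, had 2 of the 3 largest fold changes that passed the test without the libraries labelled APRIL. Uqcrfs1, the Rieske iron-sulfur protein of complex III, followed outside complex IV, and Sdhd, a membrane anchor of complex II, holds letters of 3 of the 4 motifs searched. Windows run from 250 bases before to 50 after the RefSeq start, on GRCm38.p6 and on the strand of the gene. Capitals mark matches, on either strand, to NRF1 (GCGCA and GCGC with any 1 base between them), to the ETS motif bound by GABP (CCGGAAG), to ERR (CAAGGTCA) or to the cAMP response element (TGACGTCA).
Cox7a1, chr7:30183921-30184220, plus strand: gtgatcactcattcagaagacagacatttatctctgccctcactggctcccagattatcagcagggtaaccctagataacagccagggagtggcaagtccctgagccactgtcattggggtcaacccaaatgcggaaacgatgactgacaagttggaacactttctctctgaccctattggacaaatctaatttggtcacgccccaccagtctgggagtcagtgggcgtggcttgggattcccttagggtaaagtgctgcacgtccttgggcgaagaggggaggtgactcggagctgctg
Cox8b, chr7:140900397-140900696, minus strand: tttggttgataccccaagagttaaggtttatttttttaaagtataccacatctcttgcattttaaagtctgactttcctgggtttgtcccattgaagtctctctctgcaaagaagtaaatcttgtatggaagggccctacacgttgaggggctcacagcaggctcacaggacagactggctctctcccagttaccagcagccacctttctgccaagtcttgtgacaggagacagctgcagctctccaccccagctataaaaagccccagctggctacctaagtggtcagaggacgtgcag
Uqcrfs1, chr13:30545267-30545566, minus strand: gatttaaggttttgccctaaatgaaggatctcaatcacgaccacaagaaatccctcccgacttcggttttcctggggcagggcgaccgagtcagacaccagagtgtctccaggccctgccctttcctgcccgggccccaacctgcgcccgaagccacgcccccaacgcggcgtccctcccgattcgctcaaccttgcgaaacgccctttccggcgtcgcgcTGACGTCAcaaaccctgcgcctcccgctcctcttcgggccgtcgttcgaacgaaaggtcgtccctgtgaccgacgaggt
Sdhd, chr9:50603800-50604099, minus strand: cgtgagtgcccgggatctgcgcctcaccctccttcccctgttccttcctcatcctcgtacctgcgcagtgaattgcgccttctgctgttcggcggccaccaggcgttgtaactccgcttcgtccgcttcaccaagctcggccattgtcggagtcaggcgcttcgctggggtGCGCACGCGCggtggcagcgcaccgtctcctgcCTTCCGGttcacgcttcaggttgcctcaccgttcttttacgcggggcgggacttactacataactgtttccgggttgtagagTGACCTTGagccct
Neither the Cox7a1 nor the Cox8b window holds any of the 4 motifs, the Uqcrfs1 window holds the cAMP response element and the Sdhd window holds the other 3. RefSeq gave a window for 84 of the 102 nuclear-encoded members tested, 2 of them matched through a synonym; Cox4i2, Ndufa4l2 and Uqcrb were not matched.

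NRF1 letters stood in 15 of 64 nuclear-subunit windows (23.4%) and in 6.86% of 16857 windows of protein-coding genes. The ETS letters stood in 15 of 64 subunit windows (23.4%) and in 10 of 20 assembly-factor windows (50%), against 12.2% of all windows. ERR letters and the cAMP response element each stood in 4 of 64 subunit windows (6.25%), against 1.2% and 2.42% of all windows. The median log2 fold change with norepinephrine was 0.39 for the 15 subunits with NRF1 letters and 0.49 for the 49 without, 0.48 for the 15 with ETS letters and 0.48 for the 49 without, 0.46 for the 4 with ERR letters and 0.48 for the 60 without, and 0.31 for the 4 with the cAMP response element (Ndufa10, Ndufa11, Ndufb2 and Uqcrfs1) and 0.48 for the 60 without. No motif overlapped another in a member's window.

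**Figure D1:**
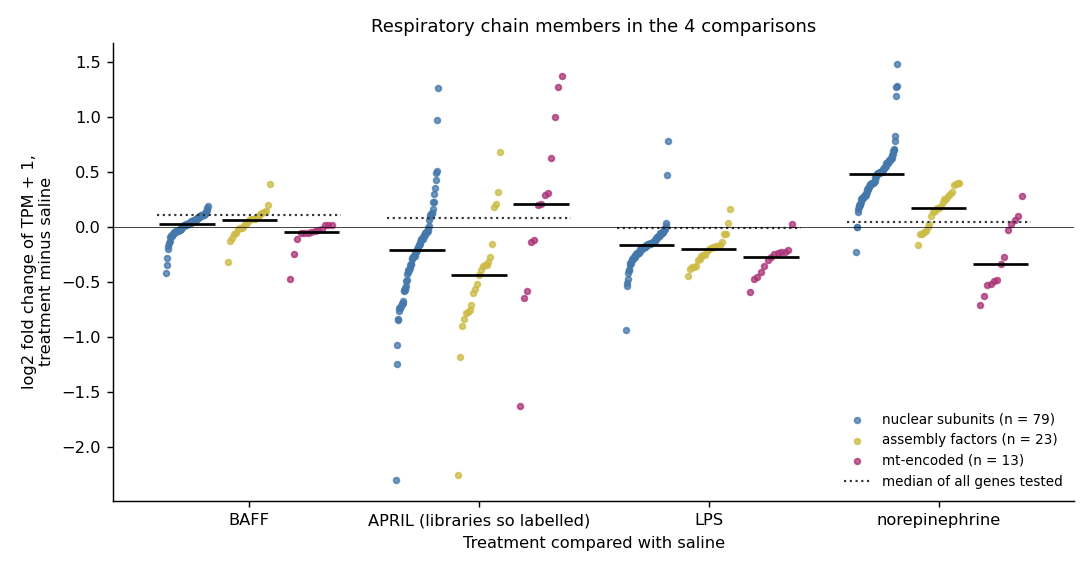
Log2 fold change of TPM + 1 against saline for each of the 115 members tested (points), by treatment; black bars are medians of 79 nuclear subunits, 23 assembly factors and 13 mitochondrially encoded (mt-encoded) genes, and the dotted line is the median of all 14166 genes. The nuclear subunits lie above the dotted line with norepinephrine, where the mt-encoded genes lie mostly below it, and the spread is widest in the libraries labelled APRIL.

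With norepinephrine, transcripts of nuclear-encoded subunits made up a larger share of the library than with saline. The 79 subunits summed to 27447 and 27891 TPM in the norepinephrine libraries, against 19397 and 20350 TPM in the saline libraries, a ratio of means of 1.39. In each of 75 subunits (94.9%) both norepinephrine libraries lay above both saline libraries, as did 34% of all genes tested, and in 0 subunits both lay below. The median log2 fold change was 0.48 for the subunits, 0.17 for the 23 assembly and supercomplex factors and 0.04 for all genes. The 13 mitochondrially encoded genes had a median of -0.34, and in 8 of them (61.5%) both norepinephrine libraries lay below both saline libraries, against 22.9% of all genes.

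Which of these changes passed the test depended on the libraries in the fit. In the fit of all 10 libraries 0 of 115 members passed an adjusted p of 0.05 (limma, Benjamini-Hochberg over all genes), where 0.699% of all genes did (0.614% were higher, 0.0847% were lower). Before adjustment, 34 members were higher and 4 were lower at p under 0.05 (limma). All genes were not counted at that cut, so these counts have no share to be set against. In the fit of the 8 libraries not labelled APRIL 47 members rose and 0 fell, where 4.87% of all genes rose and 1.08% fell. These 47 were 46 of 79 subunits (58.2%), 1 of 23 assembly factors (Cox14) and 0 of 13 mitochondrially encoded genes. Without the libraries labelled APRIL and 1 further norepinephrine or saline library, 1 to 3 members passed: Cox7a1 in each of the 4 fits, Uqcrfs1 in 3 of them and Cox4i2 in 1. In the fit of 8 libraries 24 members rose with the mitochondrially encoded genes left out and the rest rescaled (2.64% of all genes), 29 with median-ratio scaling of the libraries (3.26%) and 59 with the replicate number as a block (8.44%). Below, a member is said to have risen where it passed in the fit of 8 libraries.

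**Figure D2:**
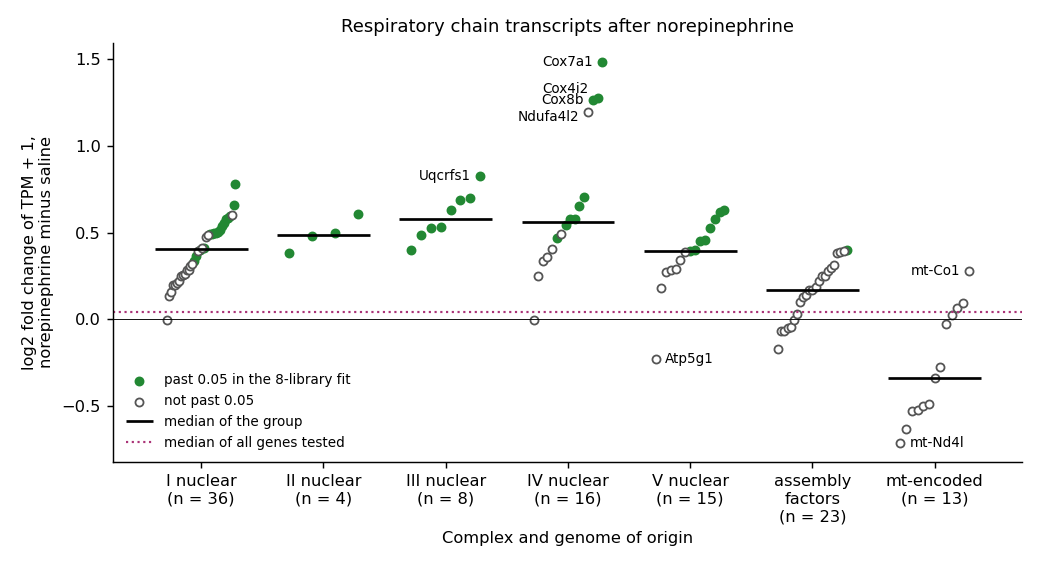
Log2 fold change of TPM + 1, norepinephrine minus saline, for each member tested, by complex and genome of origin (n under each column). Filled points passed an adjusted p of 0.05 in the fit of the 8 libraries not labelled APRIL, bars are medians and the dotted line is the median of all genes; all points of complexes II and III are filled and none of the mitochondrially encoded genes is.

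In complex I, which has the most subunits, 17 of 36 nuclear-encoded subunits rose, with a median log2 fold change of 0.40, and their summed level was 7282 and 7310.4 TPM in norepinephrine libraries, against 5228 and 5584 TPM in saline libraries. The 7 subunits of its catalytic core, which hold the flavin and the iron-sulfur clusters, had a median of 0.49, and 5 of them rose, among them Ndufs7 and Ndufv1. Ndufs7, which holds the cluster next to ubiquinone, had 152 and 141 TPM with norepinephrine and 90.7 and 94.2 TPM with saline (log2 fold change 0.66, adjusted p = 0.0131 in the fit of 8 libraries). The highest accessory subunit by fold change was Ndufa6, at 267 and 235 TPM with norepinephrine and 147 and 143 TPM with saline (log2 fold change 0.78, adjusted p = 0.0287 in the fit of 8 libraries). The most abundant on average was Ndufa3, at 634 and 579 TPM with norepinephrine and 472 and 451 TPM with saline, and it did not pass (adjusted p = 0.0542 in the fit of 8 libraries). Ndufa11, which binds the membrane arm, stood at 10.9 and 13.8 TPM with norepinephrine and 12.1 and 12.5 TPM with saline, so its groups overlapped.

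All 4 subunits of complex II, succinate dehydrogenase, rose. Sdha, the flavoprotein that oxidises succinate, had 927 and 925 TPM with norepinephrine and 622 and 692 TPM with saline (log2 fold change 0.50, adjusted p = 0.0389 in the fit of 8 libraries). The iron-sulfur subunit Sdhb had 125 and 132 TPM with norepinephrine and 89.3 and 95.1 TPM with saline (log2 fold change 0.48). The membrane anchors had log2 fold changes of 0.38 (Sdhc) and 0.61 (Sdhd), and Sdhd stood at 156 and 162 TPM with norepinephrine and 99.7 and 108 TPM with saline. In each of the 4 the groups did not overlap.

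All 8 nuclear-encoded subunits of complex III rose as well, with a median log2 fold change of 0.58. Uqcrfs1 had 160 and 169 TPM with norepinephrine and 89.6 and 94.9 TPM with saline (log2 fold change 0.83 ± 0.19 (SE), adjusted p = 0.0867 in the fit of 10 libraries and 0.00560 in the fit of 8). The hinge protein Uqcrh (log2 fold change 0.70) and the core protein Uqcrc2 (0.69) followed, and the lowest was Uqcrq, a small subunit near cytochrome b, at 589 and 604 TPM with norepinephrine and 448 and 456 TPM with saline (0.40). Uqcrb, another small subunit, has a near-identical copy (Gm16089), and the sum of the pair was 432 and 435 TPM with norepinephrine and 287 and 269.5 TPM with saline. Mitochondrially encoded cytochrome b, mt-Cytb, is the catalytic partner of these subunits and went the other way, at 3385 and 3753 TPM with norepinephrine and 4573 and 5722 TPM with saline (log2 fold change -0.52, adjusted p = 0.177 in the fit of 8 libraries).

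Complex IV, cytochrome c oxidase, held the largest fold changes of the chain, and they were in tissue-specific forms of its subunits. Cox7a1, the heart, muscle and brown fat form of subunit 7a, had 433 and 407 TPM with norepinephrine and 153 and 146 TPM with saline (log2 fold change 1.48 ± 0.29 (SE), adjusted p = 0.0666 in the fit of 10 libraries and 0.00314 in the fit of 8). Cox8b, the matching form of subunit 8, had 65.0 and 53.7 TPM with norepinephrine and 22.9 and 25.1 TPM with saline (log2 fold change 1.27, adjusted p = 0.0178 in the fit of 8 libraries). Cox4i2, the form of subunit 4 known from lung, had 42.0 and 37.4 TPM with norepinephrine and 17.1 and 14.6 TPM with saline (log2 fold change 1.27, adjusted p = 0.00801 in the fit of 8 libraries). Ndufa4l2, a hypoxia-inducible paralog of the subunit Ndufa4, had 537 and 471 TPM with norepinephrine and 281 and 171 TPM with saline, and did not pass (log2 fold change 1.19, adjusted p = 0.0599 in the fit of 8 libraries). In each of these 4 genes both norepinephrine libraries lay above both saline libraries. Over 22 alternative fits the adjusted p (limma) ranged between 0.00314 and 0.324 for Cox7a1, which passed in 9 of them, between 0.0123 and 0.567 for Cox8b and between 0.00382 and 0.348 for Cox4i2.

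The widespread forms moved less. Cox7a2 had 264 and 254 TPM with norepinephrine and 154 and 175 TPM with saline (log2 fold change 0.65) and rose, as did Cox8a (0.70), Cox6a1 (0.47), Cox6b1 (0.54) and Cox7b (0.58). Cox4i1 had 246 and 238 TPM with norepinephrine and 204 and 179 TPM with saline and did not pass (log2 fold change 0.34, adjusted p = 0.203 in the fit of 8 libraries). Cox7a1 thus supplied 48.6% and 49.4% of the summed TPM of Cox7a1, Cox7a2 and Cox7a2l in the norepinephrine libraries and 34.2% and 32.3% in the saline libraries. Cox4i2 supplied 14.6% and 13.6% of the subunit 4 pair with norepinephrine and 7.72% and 7.55% with saline, and Cox8b 7.30% and 6.61% of the subunit 8 pair with norepinephrine and 4.27% and 5.18% with saline. Cox6a2, the muscle form of subunit 6a, did not share this shift: it stood at 3.87 and 6.19 TPM with norepinephrine and 3.67 and 6.51 TPM with saline, and the groups overlapped.

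**Figure D3:**
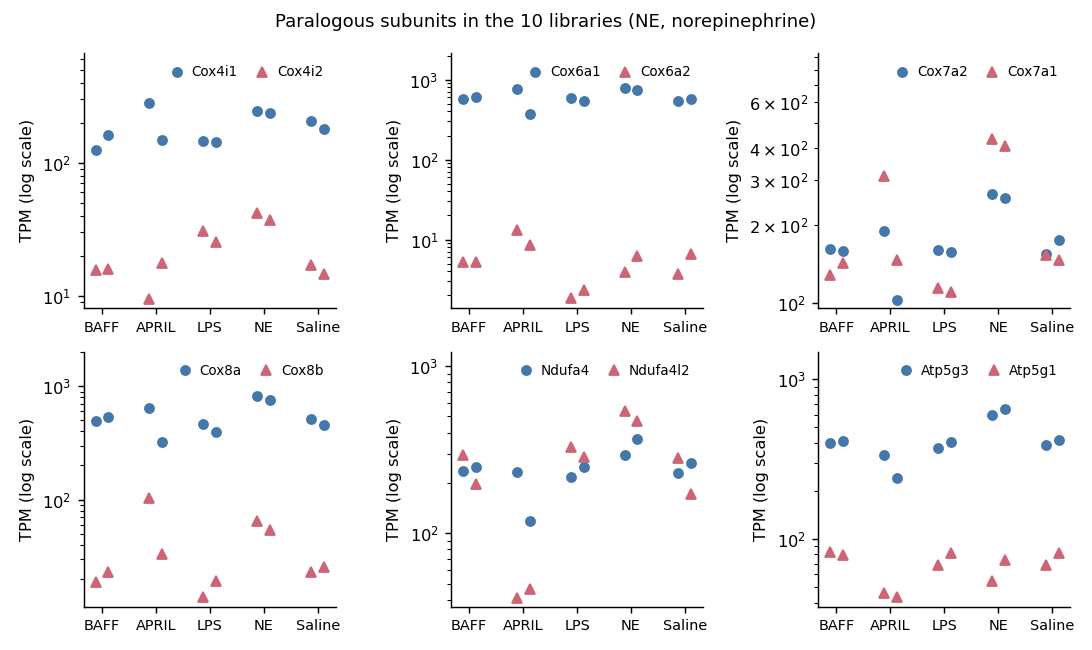
TPM on a log scale of paired forms of 6 subunits in each of the 10 libraries, replicate 1 left and replicate 2 right within a group (NE, norepinephrine). Cox7a1, Cox8b and Cox4i2 are higher in the NE libraries than in the saline libraries, Cox6a2 is not, and in the APRIL-labelled libraries Cox8b is higher and Ndufa4l2 lower than in saline.

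In complex V, 8 of 15 nuclear-encoded subunits rose, with a median log2 fold change of 0.39. In the catalytic F1 head 4 of 5 rose, among them Atp5b, the subunit that makes ATP, at 1783 and 1898 TPM with norepinephrine and 1241 and 1315 TPM with saline (log2 fold change 0.53, adjusted p = 0.0471 in the fit of 8 libraries). The most abundant nuclear-encoded member, the stalk subunit Atp5j, had 3225 and 3486 TPM with norepinephrine and 2691 and 2824 TPM with saline, and did not pass (log2 fold change 0.28). The genes for subunit c, which forms the proton-driven ring, differed. Atp5g3 rose, at 600 and 650 TPM with norepinephrine and 389 and 419 TPM with saline (log2 fold change 0.63), whereas Atp5g1 stood at 54.6 and 74.2 TPM with norepinephrine and 68.8 and 81.4 TPM with saline (log2 fold change -0.23), the lowest fold change of any nuclear-encoded member. Atp5g1 shares sequence with Gm10039, and the pair summed to 137 and 178 TPM with norepinephrine and 140.5 and 151 TPM with saline, so the direction for Atp5g1 is uncertain. Atp5g2 was near 0, but its near-identical copies Gm10175 and Gm10231 summed to 362 and 349.6 TPM with norepinephrine and 290.5 and 299 TPM with saline.

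**Figure D4:**
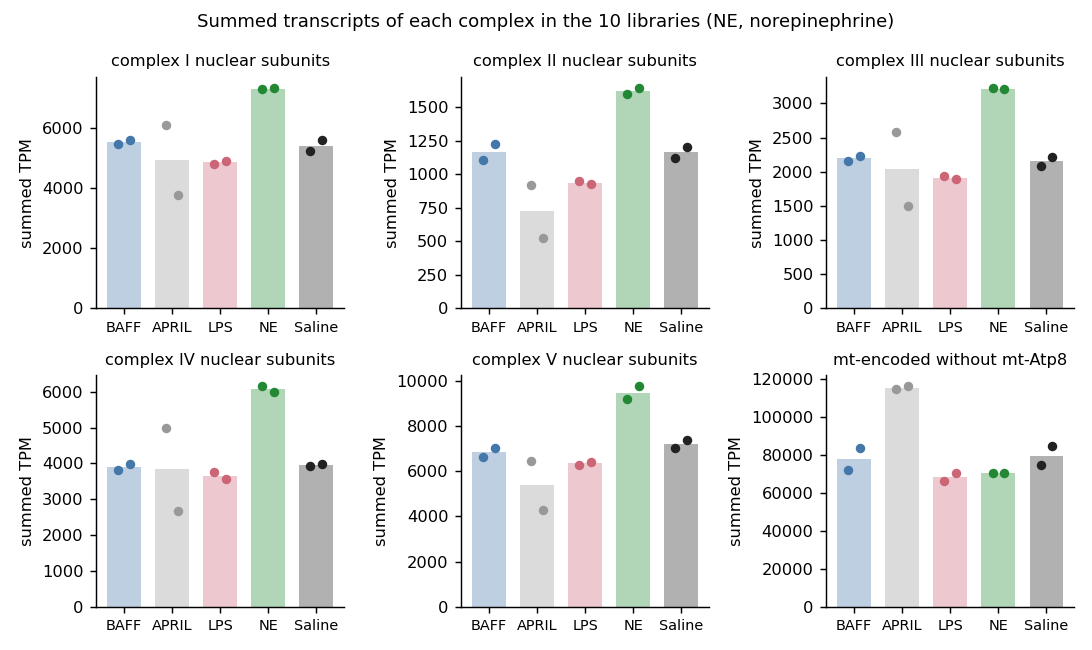
Summed TPM of the nuclear-encoded subunits of each complex, and of 12 mitochondrially encoded genes without mt-Atp8, in each library (points, replicate 1 left) with the group mean (bars); the axes start at 0. For each complex both norepinephrine (NE) libraries are above all other libraries, while the last panel shows the APRIL-labelled libraries highest and the 2 LPS libraries below both saline libraries.

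The assembly and supercomplex factors moved less than the subunits, with log2 fold changes between -0.17 and 0.40. Cox14, needed for the assembly of the catalytic subunit of complex IV, had 76.0 and 75.6 TPM with norepinephrine and 56.3 and 58.2 TPM with saline (log2 fold change 0.40, adjusted p = 0.0298 in the fit of 8 libraries). Cox7a2l, classed here as a supercomplex factor, had the same log2 fold change of 0.39 to 2 decimals as the copper chaperone Cox17, and neither passed. Of 29 assembly factors named outside the symbol rule, 1 rose and 2 fell in the fit of 8 libraries, where 4.87% of all genes rose and 1.08% fell. Uqcc3, a complex III factor, rose, and Ecsit, a complex I factor, and Atpif1, the inhibitor of ATP synthase, fell. None of them passed in the fit of 10 libraries (limma, adjusted p = 0.0642, 0.186 and 0.129). Atpif1 had 169 and 165 TPM with norepinephrine and 215 and 215 TPM with saline (adjusted p = 0.0483 in the fit of 8 libraries, limma). It thus moved against most nuclear-encoded subunits of the enzyme it inhibits. Ecsit was listed at 6.6e-05 and 0.0332 TPM with norepinephrine and 6.28 and 2.67 TPM with saline.

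The mitochondrially encoded transcripts did not follow the nuclear subunits. Together they took 15.9% and 16.9% of the listed TPM with norepinephrine and 20.2% and 22.4% with saline. The ATP synthase subunit mt-Atp8 alone took 8.59% and 9.58% with norepinephrine and 12.4% and 13.6% with saline. This was not particular to norepinephrine, as mt-Atp8 lay below both saline libraries in every other group too. Its ratio of means to saline was 0.693 with norepinephrine, 0.737 with BAFF, 0.719 with LPS and 0.673 in the libraries labelled APRIL. Its coding sequence is shown because it is only 204 bases long, and TPM is scaled by length, and because its last 43 bases, in capitals, are also the start of mt-Atp6.
mt-Atp8, chrM:7766-7969, GRCm38, plus strand: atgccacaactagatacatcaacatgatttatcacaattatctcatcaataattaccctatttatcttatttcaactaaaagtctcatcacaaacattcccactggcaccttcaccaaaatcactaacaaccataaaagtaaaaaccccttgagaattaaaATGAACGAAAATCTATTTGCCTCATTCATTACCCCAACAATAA
Without mt-Atp8 the other 12 genes took 7.32% and 7.35% with norepinephrine and 7.73% and 8.78% with saline. For each 100 TPM of these 12 genes the nuclear-encoded subunits had 39.1 and 39.6 TPM with norepinephrine and 26.1 and 24.0 TPM with saline.

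Among the 13, mt-Co1, the catalytic subunit of complex IV, was highest by fold change, at 22920 and 18490 TPM with norepinephrine and 16600 and 17320 TPM with saline (log2 fold change 0.28, adjusted p = 0.529 in the fit of 10 libraries). The other subunits of the oxidase encoded there did not go with it, as mt-Co2 had a log2 fold change of -0.28 and mt-Co3 one of -0.34. The lowest were neighbours of complex I, which overlap by 7 bases. The gene mt-Nd4 had 3248 and 3471 TPM with norepinephrine and 4843 and 5577 TPM with saline (log2 fold change -0.63, adjusted p = 0.141 in the fit of 10 libraries), and mt-Nd4l had 1918 and 2104 TPM with norepinephrine and 3082 and 3504 TPM with saline (-0.71, adjusted p = 0.124). The values of mt-Nd4l are uncertain, because the gene Gm10222 has an identical sequence and was listed at the same TPM in all 10 libraries. The log2 fold changes of mt-Nd1, mt-Nd2, mt-Nd5 and mt-Nd6 lay between -0.03 and 0.10, those of mt-Nd3, mt-Cytb, mt-Atp6 and mt-Atp8 between -0.53 and -0.49. Of the 13, 0 passed in either fit. At an unadjusted p under 0.05 (limma) 4 were lower in the fit of 10 libraries, without a count of all genes at that cut. With the replicate number as a block, mt-Nd4l fell in the fit of 10 libraries, and mt-Nd3, mt-Nd4, mt-Nd4l, mt-Cytb and mt-Atp6 fell in the fit of 8.

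**Figure D5:**
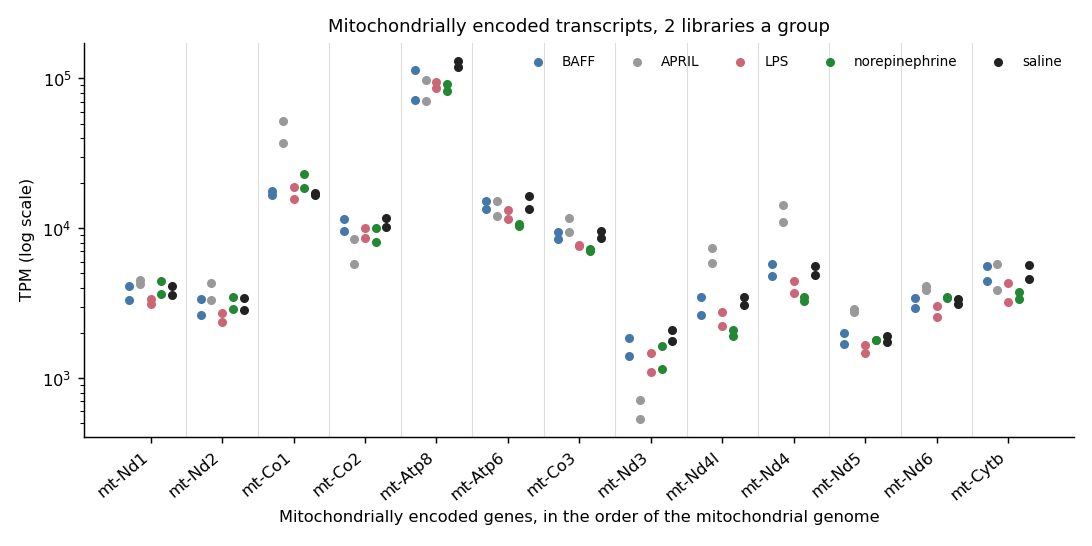
TPM on a log scale of the 13 mitochondrially encoded genes, in the order of the mitochondrial genome, with 2 points for each group. The APRIL-labelled libraries are above the others for mt-Co1, mt-Nd4l, mt-Nd4, mt-Nd5 and mt-Nd6 and below them for mt-Nd3. The norepinephrine libraries lie below the saline libraries for mt-Nd4 and mt-Nd4l, among others.

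Genes that feed or tap the chain moved in part with it. Of 18 genes of the tricarboxylic acid cycle and pyruvate dehydrogenase, 17 had both norepinephrine libraries above both saline libraries, where 34% of all genes did. In the fit of 10 libraries 1 of them rose (Dlat) and in the fit of 8 libraries 7 did, where 0.614% and 4.87% of all genes rose. Of 11 electron carriers, 4 rose in the fit of 8 libraries, among them cytochrome c1, Cyc1, a complex III subunit outside the symbol rule, at 199 and 220 TPM with norepinephrine and 112 and 120 TPM with saline. Of 10 uncoupling proteins and carriers, 2 rose in the fit of 10 libraries, and Ucp1, the uncoupling protein of brown fat, had 12.9 and 26.3 TPM with norepinephrine and 0.0461 and 0.123 TPM with saline (adjusted p = 0.0280). Of 12 regulators of mitochondrial biogenesis, 0 passed in the fit of 10 libraries and 3 rose in the fit of 8 (Ppara, Esrra and Ppargc1b), while Ppargc1a had 2.20 and 2.64 TPM with norepinephrine and 0.873 and 1.32 TPM with saline. Of 24 genes of mitochondrial transcription, RNA handling and DNA replication, 1 rose in the fit of 8 libraries. It was Polg2, a subunit of the mitochondrial DNA polymerase, and not a gene of transcription or RNA handling. Of 10 genes listed as mitochondrial targets of hypoxia-inducible factor, 4 rose in the fit of 8 libraries.

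Marker genes of cell types moved with norepinephrine too, and their part in these results was not tested. Adipocyte markers summed to 17200 and 17500 TPM with norepinephrine and 9910 and 11100 TPM with saline. Of 12 tested, 0 passed in the fit of 10 libraries and 5 rose in the fit of 8, where 0.614% and 4.87% of all genes rose. Adipoq, however, stood at 918 and 934 TPM with norepinephrine and 925 and 1062 TPM with saline. Markers of brown and beige adipocytes, which include Cox7a1 and Cox8b, summed to 606 and 580 TPM with norepinephrine and 202 and 194 TPM with saline. Most of each sum was Cox7a1 itself, at 433 and 407 TPM with norepinephrine and 153 and 146 TPM with saline. The sum is therefore not separate from the members of the chain. Of the 12 brown and beige markers tested, 2 rose in the fit of 10 libraries and 8 in the fit of 8, against the same shares of all genes. Cox7a1 and Cox8b were among the 8, and Dio2 was at most 0.156 TPM in the 4 norepinephrine and saline libraries. Skeletal muscle markers, which include Cox6a2, were higher in replicate 2 of both groups, with sums of 32.6 and 226 TPM with norepinephrine and 25.7 and 172 TPM with saline, and Myh4 was at most 0.140 TPM in these 4 libraries. Macrophage markers were higher in replicate 1 of both groups, with sums of 1490 and 352 TPM with norepinephrine and 1450 and 501 TPM with saline. Smooth muscle and pericyte markers summed to 901 and 1060 TPM with norepinephrine and 1490 and 1580 TPM with saline, fibroblast and preadipocyte markers to 9890 and 8710 TPM with norepinephrine and 11200 and 10000 TPM with saline, and endothelial markers to 45.0 and 40.8 TPM with norepinephrine and 38.6 and 46.0 TPM with saline.

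With LPS, most members were slightly lower than with saline. The nuclear-encoded subunits summed to 17701 and 17714 TPM with LPS and 19397 and 20350 TPM with saline, a ratio of means of 0.891. Of 115 members 108 had a log2 fold change below 0, as did 7448 of all 14166 genes tested. In 82 members (71.3%) both LPS libraries lay below both saline libraries, against 25.5% of all genes. The medians were -0.17 for nuclear-encoded subunits, -0.20 for assembly factors, -0.27 for mitochondrially encoded genes and -0.01 for all genes. In the fit of 10 libraries 1 of 115 members passed (0.870%), where 3.8% of all genes did (2.87% higher and 0.932% lower): Cox20, a factor in the assembly of the complex IV subunit mt-Co2, fell to 40.7 and 44.1 TPM with LPS, against 58.7 and 58.0 TPM with saline (log2 fold change -0.45 ± 0.10 (SE), adjusted p = 0.0499). That call ended without any 1 of the 4 LPS and saline libraries.

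In the fit of 8 libraries 6 members fell with LPS (5.22%) and 1 rose, where 2.19% of all genes fell and 4.32% rose. The 6 were Cox20, the complex I subunits Ndufb10 and Ndufv2, the ATP synthase subunit Atp5c1, the assembly factor Cox16 and Cox7a1. Ndufb10 had 81.3 and 81.5 TPM with LPS and 108 and 120 TPM with saline (log2 fold change -0.48, adjusted p = 0.0224 in the fit of 8 libraries), and its groups did not overlap. Cox7a1 had 114 and 110 TPM with LPS and 153 and 146 TPM with saline (log2 fold change -0.42, adjusted p = 0.0365 in the fit of 8 libraries). The gene that rose was Cox4i2, at 30.8 and 25.2 TPM with LPS and 17.1 and 14.6 TPM with saline (log2 fold change 0.78, adjusted p = 0.158 in the fit of 10 libraries and 0.0217 in the fit of 8). Cox4i2 supplied 17.3% and 14.9% of the subunit 4 pair with LPS and 7.72% and 7.55% with saline, and Ndufa4l2 had 327 and 285 TPM with LPS and 281 and 171 TPM with saline. Cox6a2, at 1.86 and 2.32 TPM with LPS and 3.67 and 6.51 TPM with saline, had the lowest log2 fold change (-0.94) and did not pass (adjusted p = 0.148 in the fit of 10 libraries).

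By complex, the summed nuclear-encoded subunits of complex II were 945 and 926 TPM with LPS and 1122 and 1202.5 TPM with saline, the lowest ratio of means (0.805), and complex IV had the highest (0.923). In 12 of 13 mitochondrially encoded genes (92.3%) both LPS libraries lay below both saline libraries, against 25.5% of all genes. The exception was mt-Co1, at 18940 and 15700 TPM with LPS and 16600 and 17320 TPM with saline. Adipocyte markers were lower over the same libraries, with sums of 6030 and 6670 TPM with LPS and 9910 and 11100 TPM with saline; 11 of 12 had both LPS libraries below both saline libraries and 1 fell in the fit of 10 libraries, the carbonic anhydrase Car3, and 6 in the fit of 8. Smooth muscle and pericyte markers summed to 1090 and 1250 TPM with LPS and 1490 and 1580 TPM with saline, and 2 of 9 fell in the fit of 10 libraries and 1 in the fit of 8. The part of these cells in the lower respiratory chain levels was not tested. Among genes outside the rule, Bcs1l, which installs the Rieske protein in complex III, fell to 9.42 and 9.34 TPM with LPS, against 14.4 and 15.8 TPM with saline (adjusted p = 0.0271 in the fit of 10 libraries and 0.0109 in the fit of 8).

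With BAFF, no difference from saline passed the test, in a comparison where 0.0141% of all genes did. In the fit of 10 libraries 0 of 115 members passed and 0 reached an unadjusted p under 0.05 (limma). In the fit of 8 libraries 0 passed and 3 were lower at that unadjusted cut, at which all genes were not counted. The nuclear-encoded subunits summed to 19159 and 20074 TPM with BAFF and 19397 and 20350 TPM with saline, a ratio of means of 0.987. Their median log2 fold change was 0.03, against 0.11 for all genes, and became -0.10 with median-ratio scaling of the libraries, where the median of all genes was -0.01. Both BAFF libraries lay above both saline libraries in 14 members (12.2%), against 40.4% of all genes, and below in 18 (15.7%), against 3.76% of all genes.

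The members of smallest p with BAFF were the assembly factor Cox18, the oxidase subunit Cox7c and Atp5j. Cox18, which inserts a domain of mt-Co2 into the membrane, had 17.1 and 20.8 TPM with BAFF and 12.7 and 15.8 TPM with saline (log2 fold change 0.39, adjusted p = 0.996). Atp5j had 2141 and 2393 TPM with BAFF and 2691 and 2824 TPM with saline (log2 fold change -0.28). Cox7c had 180 and 179 TPM with BAFF and 206 and 253 TPM with saline (log2 fold change -0.35). The BAFF libraries differed from each other in mt-Atp8, at 71790 and 113400 TPM, against 119700 and 131500 TPM with saline, so that mitochondrially encoded genes took 15.0% and 20.5% of the listed TPM with BAFF and 20.2% and 22.4% with saline. With BAFF, adipocyte markers summed to 9570 and 11700 TPM, against 9910 and 11100 TPM with saline, and fibroblast and preadipocyte markers to 14000 and 11200 TPM, against 11200 and 10000 TPM with saline. Both values of mt-Atp8 with BAFF lay below both saline values (log2 fold change -0.48, adjusted p = 0.996), and the other 12 genes overlapped between the groups.

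The libraries labelled APRIL differed from saline in 39 of 115 members (33.9%), fewer in share than the 58.1% of all genes that did. Of the members 7 were higher and 32 lower, where 33.1% of all genes were higher and 25% lower. The 2 libraries disagreed on the level of the chain: the nuclear-encoded subunits summed to 21027 TPM in replicate 1 and 12743 TPM in replicate 2, against 19397 and 20350 TPM in the saline libraries. In that sum replicate 1 lay above both saline libraries and replicate 2 below both. In 11 members (9.57%) both libraries labelled APRIL lay above both saline libraries, against 42.5% of all genes, and in 43 (37.4%) both lay below, against 35.2% of all genes. Fewer members passed without 1 of the saline libraries, which leaves 1 library in that group.

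Among the assembly factors both libraries labelled APRIL lay below both saline libraries in 17 of 23 (73.9%), against 35.2% of all genes. By the test 12 of the 23 were lower (52.2%) and 1 higher (4.35%), where 25% of all genes were lower and 33.1% higher. Ndufaf1, a complex I assembly factor, had 3.74 and 3.93 TPM in the APRIL-labelled libraries and 23.9 and 20.5 TPM in the saline libraries (log2 fold change -2.26 ± 0.15 (SE), adjusted p = 2.53e-05). Cox14 had 30.5 and 19.8 TPM in both libraries labelled APRIL and 56.3 and 58.2 TPM in the saline libraries (log2 fold change -1.19). Cox16 had 41.8 and 37.7 TPM in both APRIL-labelled libraries and 71.2 and 78.7 TPM in the saline libraries (log2 fold change -0.90), although a near-identical copy, Gm20498, makes its level uncertain. Ndufaf6 was the one higher, at 40.7 and 39.2 TPM in the APRIL-labelled libraries and 23.6 and 25.5 TPM in the saline libraries (log2 fold change 0.68). Among 29 assembly factors outside the rule 4 were higher and 11 lower.

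Of the 79 nuclear-encoded subunits, 18 were lower (22.8%) and 2 higher (2.53%) in the libraries labelled APRIL, where 25% of all genes were lower and 33.1% higher. Ndufa4l2 had 41.3 and 46.1 TPM in them and 281 and 171 TPM in the saline libraries (log2 fold change -2.30, adjusted p = 0.000201). The complex I subunit Ndufb3 (log2 fold change -1.25) and Uqcrfs1 (-1.08) came next, and Uqcrfs1 had 54.3 and 34.3 TPM in both libraries labelled APRIL and 89.6 and 94.9 TPM in the saline libraries. Sdha, Sdhc and Sdhd were lower and Sdhb did not pass. The 2 higher subunits were muscle forms: Cox8b, at 104 and 33.3 TPM in both APRIL-labelled libraries and 22.9 and 25.1 TPM in the saline libraries (log2 fold change 1.26), and Cox6a2, at 13.1 and 8.59 TPM in the APRIL-labelled libraries and 3.67 and 6.51 TPM in the saline libraries (log2 fold change 0.97). Skeletal muscle markers summed to 171 and 44.6 TPM in both libraries labelled APRIL and 25.7 and 172 TPM in the saline libraries, so these groups overlapped. Brown and beige markers, which include Cox7a1 and Cox8b, summed to 505 and 232 TPM in the 2 APRIL-labelled libraries, against 202 and 194 TPM with saline. Most of each sum was Cox7a1, at 310 and 146 TPM in the APRIL-labelled libraries and 153 and 146 TPM with saline, and Cox7a1 did not pass. Of the 12 markers 6 were higher, Cox8b among them, and 1 lower. Adipocyte markers summed to 6910 and 3030 TPM in these libraries, against 9910 and 11100 TPM with saline, with 6 of 12 lower and 1 higher. Fibroblast and preadipocyte markers summed to 2550 and 3110 TPM in them, against 11200 and 10000 TPM with saline, with 6 of 11 lower and 1 higher, and 7 of 9 smooth muscle and pericyte markers were lower. The part of these cell types in the results was not tested.

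The mitochondrially encoded genes of the libraries labelled APRIL split, with 4 higher (mt-Co1, mt-Nd4, mt-Nd4l and mt-Nd5) and 2 lower (mt-Nd3 and mt-Co2). These are 30.8% and 15.4% of the 13, near or below the shares of all genes. The gene mt-Co1 had 51830 and 36900 TPM in both APRIL-labelled libraries and 16600 and 17320 TPM in the saline libraries (log2 fold change 1.37, adjusted p = 0.000913). The gene mt-Nd4 had 11030 and 14280 TPM in the APRIL-labelled libraries and 4843 and 5577 TPM in the saline libraries (log2 fold change 1.27). The short gene mt-Nd3 had 536 and 716 TPM in both libraries labelled APRIL and 1768 and 2084 TPM in the saline libraries (log2 fold change -1.63, adjusted p = 0.000891). Of 12 regulators of mitochondrial biogenesis 11 were higher and 0 lower, where 33.1% of all genes were higher and 25% lower. Among the 11 was Ppargc1a, the coactivator of mitochondrial biogenesis, at 20.9 and 18.2 TPM in both APRIL-labelled libraries and 0.873 and 1.32 TPM in the saline libraries. The 11 also held Nrip1, a corepressor (log2 fold change 0.92), so they do not all act in 1 direction.

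Over all groups, a moderated F test called 48 of 115 members between the 5 groups, where 60.4% of all genes were called. Between the 4 groups without the libraries labelled APRIL it called 62 of 115, all of them among the 102 nuclear-encoded members, where 12% of all genes were called. As a description, the level of each nuclear-encoded member was correlated with the mean of the other nuclear-encoded subunits over the libraries, which share their treatments. Over the 10 libraries Cox7b (Pearson r = 0.992), Atp5j2 (0.990) and Uqcr11 (0.988) were most like that mean, and Cox18 (-0.144), Ndufaf6 (-0.105) and Cox6a2 (0.0176) least. Over the 8 libraries not labelled APRIL, Sdhb had the highest value (0.994), and Atp5g1 (-0.505), Cox18 (-0.191) and Ndufa11 (-0.0343) the lowest.

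Sequence copies limit the level of some members. Of 119 members 27 had a transcript of another gene at 95% identity or more over at least 50% of its length, and in 8 of them that copy was listed at 10% of the level of the member or more: Atp5g1, Atp5g2, Atp5l, Cox16, Ndufab1, Ndufs5, Uqcrb and mt-Nd4l. Atp5l, a subunit of the ATP synthase membrane part, was listed at 17.0 and 16.4 TPM with norepinephrine and 17.2 and 12.4 TPM with saline, while with its copies it summed to 681 and 710.5 TPM with norepinephrine and 572 and 567 TPM with saline. Ndufs5, a complex I subunit, and its copy BC002163 summed to 301 and 303 TPM with norepinephrine and 242 and 230.1 TPM with saline.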

How the data were processed

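RNA of 10 libraries (5 groups of 2) was sequenced from total RNA with a TruSeq kit, per the labels' protocols. The authors deposited 1 table of TPM (transcripts per 1000000) for each library; kallisto and the mm10 build are named in the submitters' processing notes, and versions and annotation are not given in the sources used here. Each table lists 28987 genes. The 14166 genes that reached 1 TPM in 2 or more libraries were analysed as log2(TPM + 1), which understates the change of low genes, with limma 3.58.1 (R 4.3.3) and its mean-variance trend: 5 group means over all 10 libraries, 5 residual degrees of freedom, Benjamini-Hochberg adjustment over all genes and a threshold of 0.05. The same fit was made without the libraries labelled APRIL (4 residual degrees of freedom). Each treatment was compared with the same 2 saline libraries. The procedure was tested on simulated data.

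Members and gene lists (pathways and cell type markers) were chosen with earlier results of these data known. Named are the mitochondrially encoded genes, succinate dehydrogenase, the most abundant member of each complex, isoform pairs, up to 10 members past the threshold in each direction, up to 4 genes of a list, or the 3 members of smallest p where none passed; members named beyond these were chosen after their values were seen. Sums, ratios and shares are of TPM. Copies were found with blastn 2.17.0 at 95% identity over at least 50% of a transcript in the GENCODE M21 annotation. Motifs were searched in RefSeq windows of 300 bases. Alternatives varied the pseudocount, filter, scaling, trend, replicate block and the libraries fitted. A second gene ID of Atp5o was not analysed here.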

Additional observations from a re-analysis of the deposited data

How the results depend on the processing

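With all 10 libraries in the fit, 0 members passed for norepinephrine under the other pseudocounts, filters and scalings and without any 1 library (range 0 to 0). Counts that moved were 3 with only the 4 libraries compared and 47 without the libraries labelled APRIL. From that fit of 8 libraries, further changes chosen after seeing the data gave 64 with a replicate block (59 higher, and 5 mitochondrially encoded genes lower), 30 with median-ratio scaling (29 higher, 1 lower), 24 with mitochondrially encoded genes left out, and 1 to 3 without 1 more library (2 and 3 without a norepinephrine library, 1 and 2 without a saline library). For LPS the count was 0 with a pseudocount of 0.1, with only the 4 libraries compared, with no mean-variance trend and without any 1 library (0 to 0), and 7 without the libraries labelled APRIL; the adjusted p of Cox20 ranged between 0.0205 and 0.267. For BAFF it was 0 under every alternative run. For the libraries labelled APRIL it was 21 with only the 4 libraries compared and 24 to 81 without 1 library. There the nuclear-subunit median ranged between -0.56 and 0.13 without 1 library, and without APRIL replicate 1 or 2 the log2 fold changes of Uqcrq (-0.48 or 0.39), Cox6b1 (-0.52 or 0.41), Cox6a1 (-0.57 or 0.48) and Cox8a (-0.60 or 0.40) reversed. With mt-Atp8 left out, mitochondrially encoded genes took 8.09% of the listed TPM with BAFF, 7.10% with LPS, 12.1% in the libraries labelled APRIL, 7.34% with norepinephrine and 8.26% with saline. The causes were not tested, beyond the fewer libraries or genes fitted.

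Whether replicate numbers mark shared cultures is not in the labels, and with 2 numbers they were not treated as pairs. Deviations of same-numbered libraries correlated at 0.272 to 0.479 across genes among BAFF, LPS, norepinephrine and saline and at -0.108 to 0.0264 with the libraries labelled APRIL. With a replicate block over all 10 libraries, 0 members passed for BAFF, 44 for the libraries labelled APRIL, 1 for LPS (mt-Nd3 in place of Cox20) and 1 for norepinephrine (mt-Nd4l, lower). Without the libraries labelled APRIL the block gave 20 for LPS. The depth is unknown, so no counting error could be given.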

Other observations

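With LPS, 12 of 18 genes of the tricarboxylic acid cycle and pyruvate dehydrogenase had both libraries below both saline libraries (25.5% of all genes tested), and the pyruvate dehydrogenase subunit Pdhb fell in the fit of the 8 libraries not labelled APRIL, to 67.5 and 64.5 TPM with LPS, against 99.8 and 110 TPM with saline (adjusted p = 0.281 in the fit of 10 libraries and 0.0133 in the fit of 8, limma). The electron transfer flavoprotein subunit Etfb, which feeds electrons of fatty acid oxidation to ubiquinone, fell in the same fit, to 136 and 157 TPM with LPS, against 204 and 227 TPM with saline (adjusted p = 0.0780 in the fit of 10 libraries and 0.0276 in the fit of 8). Of 24 genes of mitochondrial transcription, RNA handling and DNA replication, 14 had both LPS libraries below both saline libraries and 0 passed in either fit.

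In the libraries labelled APRIL, 5 of 18 genes of the tricarboxylic acid cycle and pyruvate dehydrogenase were lower and 0 higher, where 25% of all genes were lower and 33.1% higher; among the 5 was Dlat, at 75.7 and 49.2 TPM in the libraries labelled APRIL, against 102 and 113 TPM with saline (adjusted p = 0.00618, limma). The muscle and heart ATP/ADP carrier Slc25a4 was lower too, at 74.1 and 64.5 TPM in the libraries labelled APRIL, against 139 and 153 TPM with saline. Coq10b, a coenzyme Q binding protein, was higher, at 78.0 and 71.8 TPM in the libraries labelled APRIL, against 18.8 and 20.5 TPM with saline, and so was Hccs, which attaches heme to cytochrome c, at 38.9 and 31.1 TPM in the libraries labelled APRIL, against 12.97 and 14.72 TPM with saline.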
